A study of Homo sapiens with 12 samples.

Results

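The genes examined here were 48 listed interferon-stimulated genes, among them the 3 inducible catalytic subunits of the immunoproteasome, followed across the 4 culture groups of all 12 Illumina HumanWG-6 v3 arrays of the series. They were chosen by name, and a probe was taken when the array annotation named it for that gene alone. By this rule 46 of the 48 genes had a probe (70 of 48803 probes in all). STAT2 and HERC6 had none and were not analysed here. Testing required a signal over the background limit of the array from some probe of the gene in 3 or more of the 12 cultures. This left 41 members, out of 10642 tested genes among 18665 with a named probe. IFI27, IRF7, USP18, RSAD2 and CXCL10 did not reach it.

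U373 and U87MG are established human glioblastoma cell lines, and each group held 3 biological replicates. U373 monoculture and U373 co-culture cells always grew in a Transwell insert, whereas U87MG monoculture and U87MG co-culture cells always grew in the bottom chamber, so the line and the chamber cannot be told apart in a comparison of the lines. In both co-cultures the lines were joined for 72 h across a membrane with pores of 0.4 µm, in 3 ml of the same supplemented medium that the monocultures received, after 3 h of adhesion. No interferon or other agent was added to any group according to the labels.

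Interferons bind receptors on the cell surface, and the receptors activate JAK kinases. These phosphorylate STAT proteins. A complex of STAT proteins with IRF9 then binds the interferon-stimulated response element (ISRE), while STAT dimers bind the gamma-activated sequence (GAS). The induced proteins block virus entry, replication and release, and the immunoproteasome cuts proteins into peptides suited to presentation on MHC class I. Many of these genes also have a basal level in tumour cells that are not infected or treated, and this basal level is what the arrays measured.

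Both elements can be read in the promoters of the members. RefSeq promoter windows of 300 bases (250 before and 50 after a gene start, assembly GRCh38.p14) were available for 39 of the 48 genes, with 51 windows in all. GBP2, IFIT2, IFITM2, IRF7, MX2, OAS2, OASL, TRIM22 and USP18 were not in the table. The ISRE core was searched as GAAA, any 2 bases and GAAA again, on both strands, with overlapping matches counted separately, and it was present in 33 of the 51 windows (64.7%), compared with 3.57% of all 35116 windows. By gene, 28 of 39 members (71.8%) and 4.38% of all 27305 genes had it. The GAS letters TTCNNNGAA, which can overlap the ISRE core, were present in 27.5% of the member windows and 7.66% of all windows. The members were listed as interferon-induced genes, so this share describes the list and is no finding. Of the members that differed between the monocultures, 16 of the 20 with a window that were higher in U373 and 6 of the 10 that were lower had the ISRE core. The letters thus occurred in promoters of members from both directions.

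The windows of 8 members are printed from 250 bases before to 30 bases after the start, 5′ to 3′ on the strand of the gene, with every match to either motif in capitals. IFITM1 (chr11:313790-314069 on the plus strand), IFITM3 (chr11:320831-321110 on the minus strand), MX1 (chr21:41420308-41420587 on the plus strand, 1 of 3 windows) and BST2 (chr19:17405601-17405880 on the minus strand) are shown because they were among the members most raised in U373. IFI44L (chr1:78620198-78620477 on the plus strand) is shown because it was among those most raised in U87MG. ISG15 (chr1:1013247-1013526 on the plus strand) had the smallest p of any member with co-culture. DTX3L (chr3:122564088-122564367 on the plus strand) shares part of its window, including the ISRE core, with a neighbour that differed in the opposite direction. IRF1 (chr5:132490744-132491023 on the minus strand) is a member with GAS letters and no ISRE core. In IFITM1 and BST2 a capital run joins overlapping matches of both motifs, and in ISG15 a run joins 2 overlapping ISRE cores.
IFITM1: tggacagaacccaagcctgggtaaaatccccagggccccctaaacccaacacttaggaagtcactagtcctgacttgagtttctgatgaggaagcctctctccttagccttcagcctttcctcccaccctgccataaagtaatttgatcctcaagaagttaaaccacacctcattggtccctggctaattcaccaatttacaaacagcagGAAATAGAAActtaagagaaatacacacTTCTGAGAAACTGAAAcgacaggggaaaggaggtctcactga
IFITM3: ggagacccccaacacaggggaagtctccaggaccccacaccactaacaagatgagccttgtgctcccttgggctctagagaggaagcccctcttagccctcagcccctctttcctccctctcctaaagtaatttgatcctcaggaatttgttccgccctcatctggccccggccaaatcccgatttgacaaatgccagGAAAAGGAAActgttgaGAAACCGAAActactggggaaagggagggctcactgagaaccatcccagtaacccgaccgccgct
MX1: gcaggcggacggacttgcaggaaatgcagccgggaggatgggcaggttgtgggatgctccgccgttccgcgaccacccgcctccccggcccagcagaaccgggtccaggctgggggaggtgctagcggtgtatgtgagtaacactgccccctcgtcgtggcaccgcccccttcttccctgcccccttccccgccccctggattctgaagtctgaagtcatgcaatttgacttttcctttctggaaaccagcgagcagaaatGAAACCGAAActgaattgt
BST2: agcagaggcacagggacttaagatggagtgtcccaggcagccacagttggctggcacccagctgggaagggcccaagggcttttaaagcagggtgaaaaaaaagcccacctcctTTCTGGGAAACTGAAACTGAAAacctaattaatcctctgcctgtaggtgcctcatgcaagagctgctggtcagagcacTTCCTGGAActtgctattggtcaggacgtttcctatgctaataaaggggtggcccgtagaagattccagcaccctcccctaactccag
IFI44L: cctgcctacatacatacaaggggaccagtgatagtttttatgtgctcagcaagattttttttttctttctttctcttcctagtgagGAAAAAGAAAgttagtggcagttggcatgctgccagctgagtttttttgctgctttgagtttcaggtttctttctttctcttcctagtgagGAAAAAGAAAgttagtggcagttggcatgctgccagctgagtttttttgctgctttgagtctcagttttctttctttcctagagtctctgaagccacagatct
ISG15: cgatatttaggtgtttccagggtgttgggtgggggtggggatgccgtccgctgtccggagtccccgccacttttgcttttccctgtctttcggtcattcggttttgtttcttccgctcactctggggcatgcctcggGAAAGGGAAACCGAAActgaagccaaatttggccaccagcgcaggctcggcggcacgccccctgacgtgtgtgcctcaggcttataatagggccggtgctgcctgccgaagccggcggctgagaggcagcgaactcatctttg
DTX3L: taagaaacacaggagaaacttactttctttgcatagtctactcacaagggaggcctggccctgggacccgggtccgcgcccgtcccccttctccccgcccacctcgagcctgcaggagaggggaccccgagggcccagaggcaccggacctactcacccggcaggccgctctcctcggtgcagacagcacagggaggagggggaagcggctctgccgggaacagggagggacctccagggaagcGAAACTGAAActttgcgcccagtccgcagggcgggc
IRF1: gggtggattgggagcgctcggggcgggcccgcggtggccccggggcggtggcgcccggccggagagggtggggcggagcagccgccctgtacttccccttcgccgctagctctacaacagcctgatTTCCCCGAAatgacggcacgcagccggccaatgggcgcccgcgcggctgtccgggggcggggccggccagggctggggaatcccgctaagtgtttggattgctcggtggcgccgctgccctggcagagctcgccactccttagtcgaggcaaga

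Replicate arrays of a group had correlations of 0.9806 to 0.992, whereas U373 with U87MG arrays had 0.8022 to 0.8262. A probe counted as above background from log2 values of 4.316 to 5.703, depending on the array, and 23.9% to 34.6% of probes did. VIM, the intermediate filament vimentin of glioma cells, was above background on all 12 arrays. GFAP and SOX2, which mark astrocytic and neural stem-like cells, were above background on the 6 U373 arrays and on none of the 6 U87MG arrays. The astrocyte markers S100B and AQP4 were above background on no array, NES, SLC1A3 and CD44 were so on all 12, and CD44 was lower in U373 monoculture (log2 -0.47, limma adjusted p = 0.0389). Of the markers of cells that respond strongly to interferon or make it, 5 of 7 macrophage and microglia genes (all but CD14 and CSF1R), 4 of 4 T and NK cell genes and 2 of 3 plasmacytoid dendritic cell genes were above background on no array. CSF1R was above background on all 12 arrays, with group means of 8.27 to 8.92, and CD14 on 10. Between the monocultures CD14 was higher in U373 (log2 0.87, limma adjusted p = 0.000785), and CSF1R did not pass (-0.37, adjusted p = 0.173). The summed log2 level of the macrophage list, with 5 of 7 genes at background, was 30.3 to 31.6 in U373 monoculture and 29.3 to 30.3 in U87MG monoculture.

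Between 33 and 37 of the 46 members with a probe were above background on all 3 arrays of a group (33 in U373 monoculture, 35 in U373 co-culture and 37 in each U87MG group), against 44.2% to 49.4% of all genes with a probe. Basal transcripts of most members were thus measured in both lines. RSAD2, the antiviral protein viperin, lay between 3.2 and 4.0 on the log2 scale over the 12 arrays, and CXCL10, an interferon-induced chemokine, between 3.17 and 4.31, with neither above background in any group. IRF7, the interferon regulatory factor that amplifies the type I response, and USP18, the protease that removes ISG15 from proteins, did not reach the 3 arrays required (1 array above background for IRF7, in U87MG co-culture, and 0 for USP18).

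In monoculture the 2 lines differed in most members, and the members did not differ in 1 direction. U373 had higher levels of the membrane restriction factors IFITM1, IFITM2 and IFITM3, of MX1, IFIT2, GBP1, GBP2 and BST2, whereas U87MG had higher levels of OASL, IFI44L, SP110, TRIM22, IFI16 and GBP3. By limma with Benjamini-Hochberg adjustment over all 10642 genes (called at an adjusted p under 0.05), 23 members were higher (27.9% of all tested genes were) and 12 lower in U373 (31.2% of all tested genes), and 6 did not pass. These 35 of 41 members (85.4%) compare with 59.2% of all tested genes. The median absolute log2 difference was 0.883 over the members and 0.534 over all tested genes, and 43.9% of members against 26.3% of all tested genes exceeded 1. The median signed log2 difference, U373 minus U87MG, was 0.58 over the members (0.55 with the 4 members measured in only 1 line set at their bound) and -0.05 over all tested genes.

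**Figure D1:**
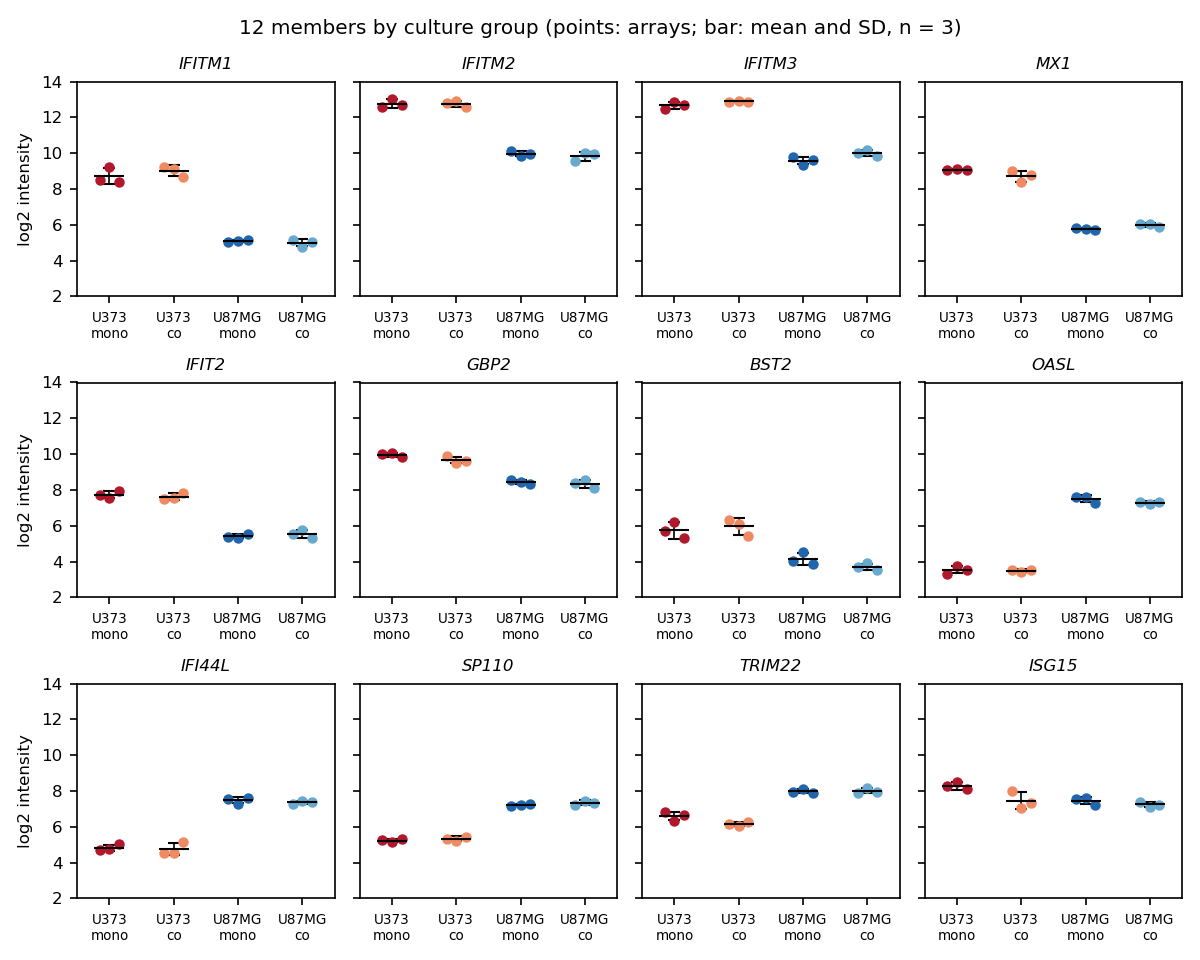
Log2 intensity (y axis) of 12 members in the 4 culture groups, with 1 point per array and bars for the mean and SD (n = 3). The U373 and U87MG arrays do not overlap for the IFITM genes, MX1, IFIT2, GBP2, BST2, OASL, IFI44L, SP110 and TRIM22, whereas for ISG15 the U373 co-culture arrays (7.06 to 7.98) overlap with U87MG.

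The IFITM proteins sit in cell membranes and block the fusion of entering viruses, and all 3 measured family members were higher in U373. IFITM1 was 8.51, 9.22 and 8.41 on the log2 scale in the U373 monocultures and 5.04, 5.07 and 5.13 in the U87MG monocultures, a 12.4-fold difference (log2 3.63, SE 0.21, limma adjusted p = 6.21e-10). IFITM2 was 12.56, 13.03 and 12.67 in U373 and 10.11, 9.86 and 9.93 in U87MG, which is 6.9-fold (log2 2.79, SE 0.17, adjusted p = 1.27e-09). IFITM3 was 12.49, 12.85 and 12.66 in U373 and 9.76, 9.36 and 9.62 in U87MG, which is 8.52-fold (log2 3.09, SE 0.15, adjusted p = 1.23e-10). In each of the 3 genes every U373 array lay above every U87MG array. The IFITM genes are near-identical in parts of their sequence, and whether a probe read more than 1 of them was not tested.

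The MX proteins, dynamin-like GTPases that trap viral components, separated. MX1, which acts against influenza and related viruses, was 9.05, 9.13 and 9.07 in the U373 monocultures and 5.79, 5.78 and 5.72 in the U87MG monocultures, 9.99-fold higher in U373 (log2 3.32, SE 0.15, limma adjusted p = 4.78e-11). MX2, its neighbour on chromosome 21 and a restriction factor of HIV, had a log2 difference of 0.07 (95% interval -0.38 to 0.53, adjusted p = 0.788) and was above background on 1 of 3 U373 and 3 of 3 U87MG monoculture arrays.

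BST2, or tetherin, which holds budding virions at the cell surface, was 5.7, 6.21 and 5.3 in the U373 monocultures and 4.02, 4.52 and 3.87 in the U87MG monocultures, where no array was above background. Its level was at least 1.87-fold higher in U373 (limma adjusted p = 6.27e-05), a bound taken from the mean of the U373 arrays against the lowest signal above background, or the gene's own where higher, on the U87MG arrays. ISG20, an exonuclease that degrades viral RNA, was 2.47-fold higher in U373 (log2 1.3, SE 0.21), and SAMD9L, a restriction factor that inhibits translation, 1.84-fold higher (log2 0.88, SE 0.17). TRIM22, a ubiquitin ligase of the tripartite motif family, differed the other way by 2.62-fold (log2 -1.39, SE 0.15, adjusted p = 1.18e-06), with 6.8, 6.33 and 6.65 in U373 and 7.94, 8.11 and 7.9 in U87MG. PLSCR1, a phospholipid scramblase, was at least 1.29-fold lower in U373, where it was above background on no monoculture array (mean 4.39 against 5.5). SAMD9, the paralog of SAMD9L, had a log2 difference of -0.41 that missed the threshold (adjusted p = 0.0614).

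The guanylate-binding proteins are interferon-induced GTPases that attack vacuoles of intracellular pathogens. GBP2 was 10.0, 10.04 and 9.82 in the U373 monocultures and 8.54, 8.43 and 8.33 in the U87MG monocultures, 2.87-fold higher in U373 (log2 1.52, SE 0.15, limma adjusted p = 6.12e-07). GBP1 was 2.67-fold higher (log2 1.41, SE 0.19), whereas GBP3 was 2.03-fold lower (log2 -1.02, SE 0.18, adjusted p = 0.000153). The 3 genes are neighbours on chromosome 1 and closely related in sequence, and cross-reading between their probes was not tested.

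Of the IFIT proteins, IFIT1 binds viral RNA that lacks the cap methylation of host messages. IFIT2 was 7.74, 7.54 and 7.94 in the U373 monocultures and 5.36, 5.32 and 5.54 in the U87MG monocultures, 5.05-fold higher in U373 (log2 2.34, SE 0.16, limma adjusted p = 6.08e-09). IFIT1 was 1.68-fold and IFIT5 1.49-fold higher. The value of IFIT1 averages a probe above background on all 12 arrays, with a log2 difference of 1.6, and a probe above background on none. IFIT3 did not pass (log2 0.36, 95% interval -0.15 to 0.87, adjusted p = 0.209), and its 3 probes disagreed, with log2 differences of 0.91, 0.64 and -0.47. With the brightest probe alone, the 0.91 passed (adjusted p = 0.000764).

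The OAS enzymes make short oligoadenylates in the presence of double-stranded RNA, which activate RNase L. OASL, a family member that has no synthetase activity and aids RNA sensing by RIG-I, differed the other way. It was 7.61, 7.62 and 7.27 in the U87MG monocultures and 3.33, 3.74 and 3.55 in the U373 monocultures, where no array was above background, so that it was at least 5.16-fold lower in U373 (limma adjusted p = 5.67e-12). Both of its probes ran this way, with 8.48 and 6.52 in U87MG and 3.34 and 3.74 in U373. OAS3 was 1.41-fold higher in U373 (log2 0.49, SE 0.15, adjusted p = 0.0118), from 1 probe above background on all 12 arrays (log2 1.01) and 1 above on none. OAS1 and OAS2 did not pass (log2 -0.14 and -0.31, adjusted p = 0.432 and 0.0724). All 4 probes of OAS1 were at or near background, the brightest being above it on 3 of 12 arrays.

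Among the sensors and kinases of foreign nucleic acid, EIF2AK2 (the kinase PKR, which halts translation when it binds double-stranded RNA) was 2.27-fold higher in U373 (log2 1.18, SE 0.18) and IFIH1 (the cytoplasmic RNA sensor MDA5) 1.97-fold higher (log2 0.98, SE 0.2). IFI16, a nuclear sensor of DNA, was 2.13-fold lower in U373 (log2 -1.09, SE 0.21, limma adjusted p = 0.00042). ISG15, a ubiquitin-like protein attached to other proteins, was 8.25, 8.52 and 8.09 in the U373 monocultures and 7.57, 7.58 and 7.23 in the U87MG monocultures, 1.77-fold higher in U373 (log2 0.82, SE 0.21, adjusted p = 0.00316). HERC5, the ligase that attaches ISG15, had a log2 difference of -0.41 at an adjusted p of 0.0455, a call lost without U373 monoculture replicate 1 or 2, U87MG monoculture replicate 1 or 2, U373 co-culture replicate 2 or U87MG co-culture replicate 3 (log2 -0.44 to -0.33, adjusted p 0.0507 to 0.147).

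The transcription factors also split. IRF9, the DNA-binding part of the complex at the ISRE, was 8.53, 8.8 and 8.9 in the U373 monocultures and 9.68, 9.27 and 9.32 in the U87MG monocultures, 1.6-fold lower in U373 (log2 -0.68, SE 0.15, limma adjusted p = 0.00116). IRF1, a factor induced strongly by interferon gamma, was 8.49, 8.8 and 8.12 in U373 and 7.86, 7.83 and 7.59 in U87MG, 1.64-fold higher (log2 0.71, SE 0.26, adjusted p = 0.03). The call on IRF1 was lost without U373 monoculture replicate 1 or 2 or any 1 of the 3 U87MG monocultures (log2 0.54 to 0.76, adjusted p 0.0515 to 0.121).

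Of the remaining induced genes, IFI44L was 4.72, 4.76 and 5.02 in the U373 monocultures and 7.56, 7.29 and 7.62 in the U87MG monocultures, 6.3-fold lower in U373 (log2 -2.66, SE 0.17, limma adjusted p = 2.91e-09). This averages a probe above background on all 12 arrays, with a log2 difference of -3.25 on its own (adjusted p = 9.51e-09), and a probe above background on 0 U373 arrays, so that the averaged fold understates the difference. SP110, a component of nuclear bodies, was 5.24, 5.13 and 5.31 in U373 and 7.15, 7.19 and 7.27 in U87MG, 3.92-fold lower (log2 -1.97, SE 0.13, adjusted p = 5.13e-09), but 2 of its 4 probes were above background on 0 U373 arrays, and the averaged fold understates the difference. The 2 probes above background on all 12 arrays had log2 differences of -2.35 and -2.61. In both genes the arrays of the lines were far apart. IFI44 was 1.98-fold lower in U373 (log2 -0.98, SE 0.14). IFI35, a leucine zipper protein, was 1.32-fold lower (log2 -0.4, adjusted p = 0.0178), a call lost without U373 monoculture replicate 3 or U87MG monoculture replicate 1 (log2 -0.35 and -0.32, adjusted p = 0.0654 and 0.0785). XAF1, a partner of the apoptosis inhibitor XIAP, was at least 1.05-fold higher in U373, being above background on 2 of 3 U373 and 0 of 3 U87MG monoculture arrays, and with its brightest probe alone it did not pass (log2 0.46, adjusted p = 0.195). IFI6, an inhibitor of apoptosis and of flavivirus replication, was 1.64-fold higher and LGALS3BP, a secreted glycoprotein that binds galectins, 1.5-fold higher in U373.

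**Figure D2:**
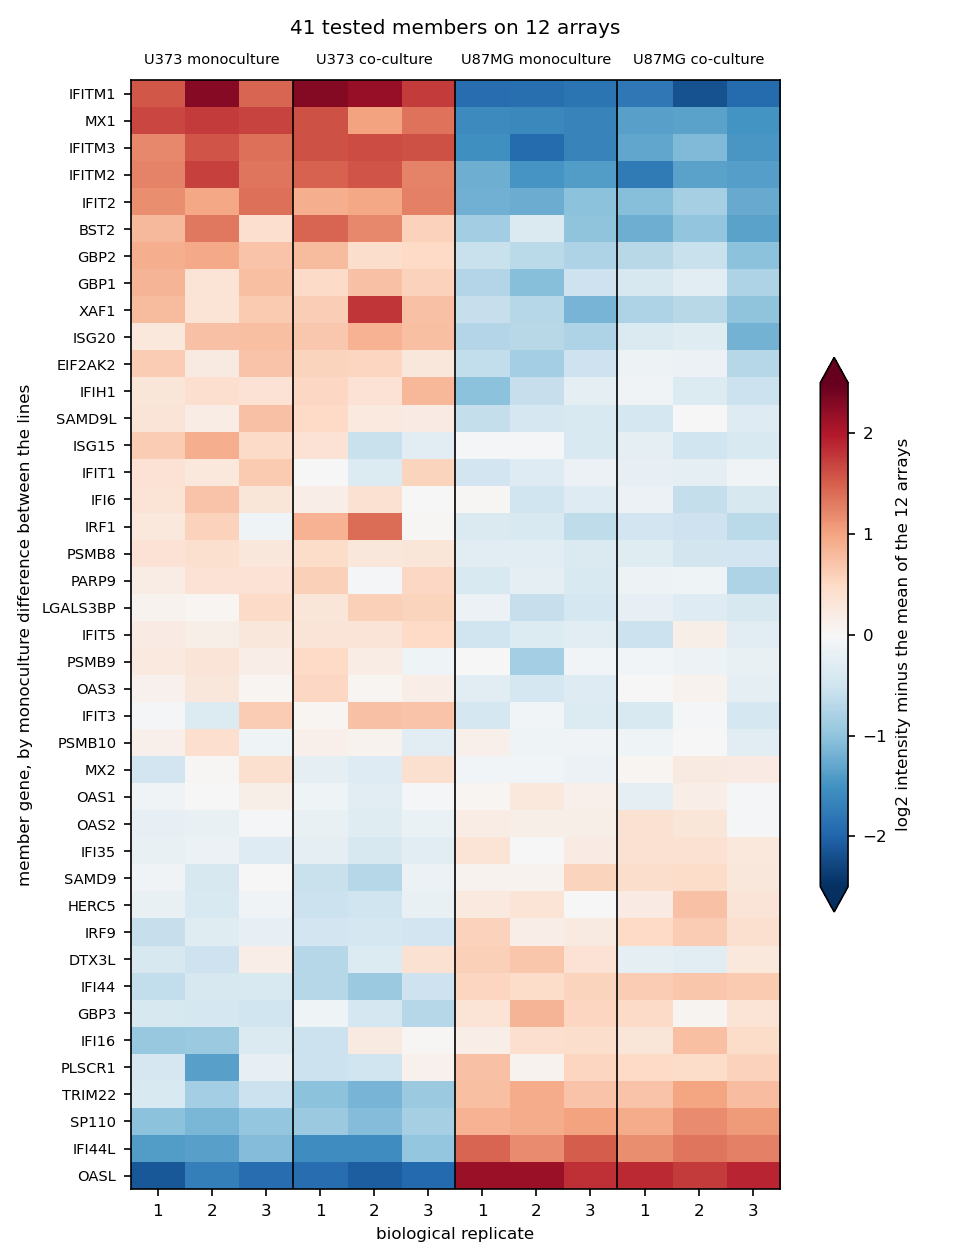
The 41 tested members (rows, ordered by the monoculture difference between the lines) on the 12 arrays (columns, by group and biological replicate), coloured by log2 intensity minus the mean of the gene over the 12 arrays. IFITM1, MX1 and the other 21 members called higher in U373 stand toward the top, OASL and IFI44L at the bottom, and co-culture columns resemble the monoculture columns of the same line.

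PSMB8, PSMB9 and PSMB10 replace the constitutive catalytic subunits PSMB5, PSMB6 and PSMB7, in that order, when the immunoproteasome is assembled. PSMB8 was 8.36, 8.4 and 8.29 in the U373 monocultures and 7.74, 7.73 and 7.64 in the U87MG monocultures, 1.57-fold higher in U373 (log2 0.65, SE 0.13, limma adjusted p = 0.00041), and all 4 of its probes ran this way (log2 0.47 to 0.87). PSMB9 was 6.59, 6.68 and 6.52 in U373 and 6.35, 5.51 and 6.28 in U87MG, 1.47-fold higher (log2 0.55, SE 0.21, adjusted p = 0.0315). U87MG monoculture replicate 2 was low for PSMB9, and without it the log2 difference was 0.28 (adjusted p = 0.19); the call was also lost without U373 monoculture replicate 1 (0.56, adjusted p = 0.0655) or 2 (0.51, adjusted p = 0.0802). PSMB10 was 11.37, 11.66 and 11.12 in U373 and 11.37, 11.13 and 11.15 in U87MG, with overlapping arrays (log2 0.17, 95% interval -0.19 to 0.52, adjusted p = 0.405).

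The constitutive counterparts did not share the direction of PSMB8. PSMB5 was 1.78-fold lower in U373 (log2 -0.83, SE 0.12, limma adjusted p = 3.62e-05) and PSMB7 1.28-fold lower (log2 -0.36, SE 0.13, adjusted p = 0.0269), while PSMB6 had a log2 difference of -0.06 (adjusted p = 0.719). PSME2, a subunit of the interferon-inducible activator that caps the proteasome, was 2.08-fold lower in U373 (log2 -1.06, SE 0.16), opposite to PSMB8 and PSMB9. Of the 7 listed constitutive, activator and assembly genes, 0 were higher, 3 lower and 4 did not pass, against 27.9% of all tested genes higher and 31.2% lower. The same 3 were lower in co-culture, as were 31.6% of all tested genes.

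**Figure D3:**
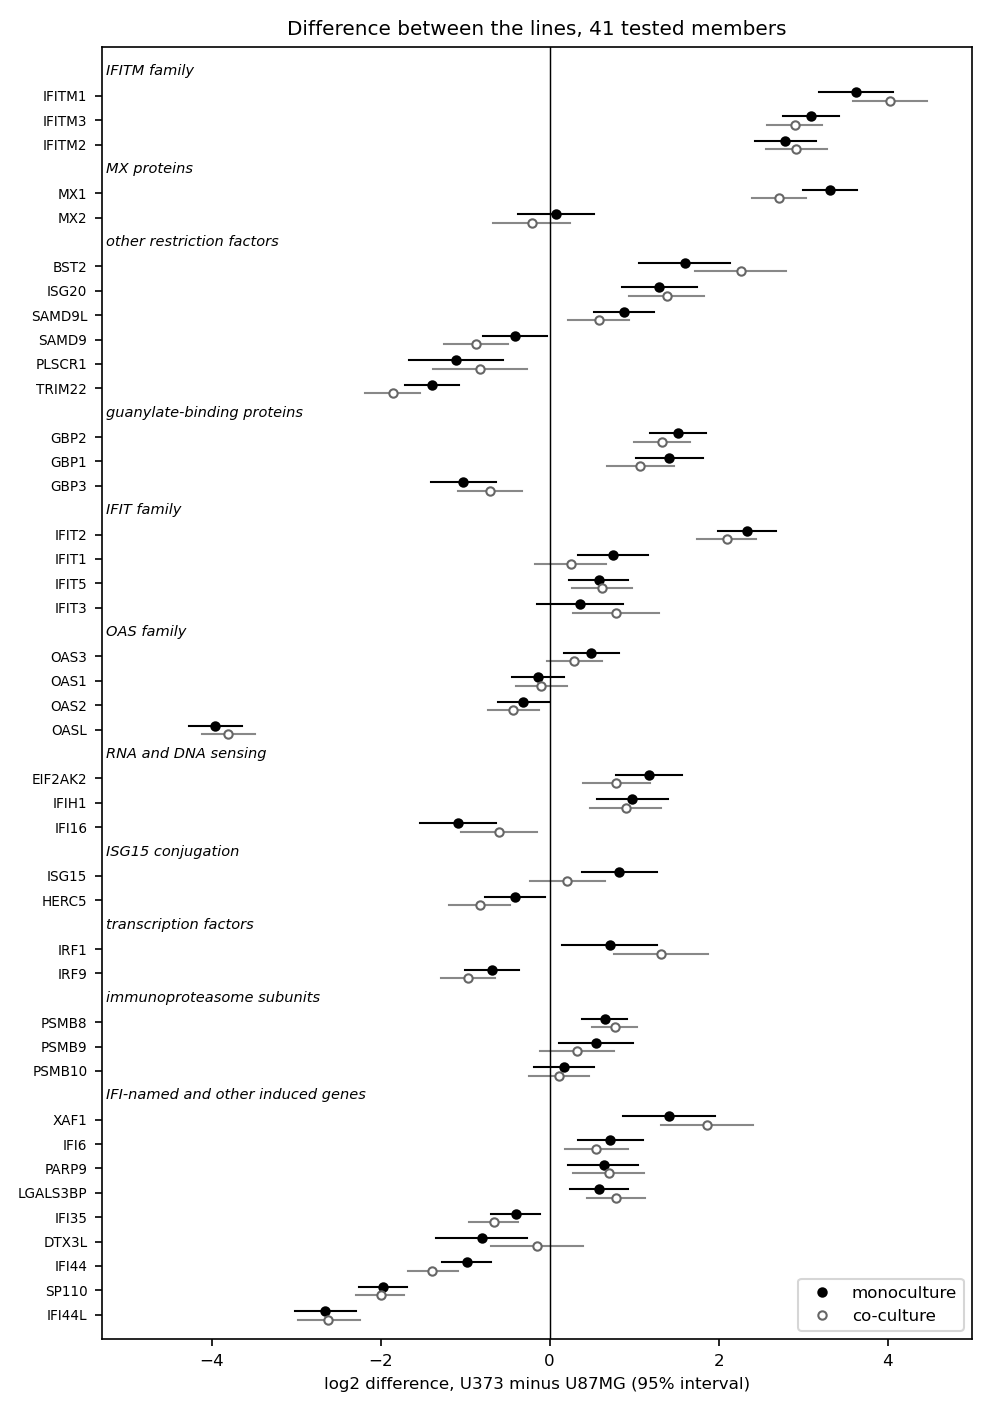
Log2 difference U373 minus U87MG (x axis, with 95% intervals) of the 41 tested members grouped by role, in monoculture (filled) and co-culture (open). The IFITM family lies on the U373 side at 2.79 to 4.03 and OASL, IFI44L, SP110 and TRIM22 on the U87MG side in both cultures; for OASL, BST2, XAF1 and PLSCR1 the plotted value is the measured difference although 1 line was not above background in monoculture.

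Several members are neighbours on a chromosome, and neighbours did not always differ in the same direction. Of 19 pairs of tested members with at most 2 protein-coding genes between them, 11 had both members called, 8 in the same direction and 3 in opposite directions. For single genes, 59.2% of all tested genes were called. Neighbouring pairs among all tested genes were not counted, and several pairs share a gene. The counts thus describe the listed pairs only. The IFITM genes on chromosome 11, IFI44 and IFI44L on chromosome 1, IFIT1 with IFIT2 and IFIT5 on chromosome 10, and PSMB8 with PSMB9 on chromosome 6 shared a direction. GBP3 was opposed to both GBP1 and GBP2. PARP9, an ADP-ribosyltransferase, and DTX3L, the ubiquitin ligase with which it forms a complex, lie next to each other on chromosome 3 in divergent orientation, and a pair of their promoter windows overlapped by 137 bases and shared the single ISRE core seen in the DTX3L window. PARP9 was higher in U373 (log2 0.64, SE 0.2, limma adjusted p = 0.0115) and DTX3L lower (log2 -0.8, SE 0.25, adjusted p = 0.0128).

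DTX3L was near background, with 4.36, 4.24 and 4.93 in the U373 monocultures (1 of 3 arrays above background) and 5.35, 5.46 and 5.13 in the U87MG monocultures. Its call was lost without U373 monoculture replicate 2 (log2 -0.67, adjusted p = 0.0561), and in co-culture its difference between the lines was -0.15 (adjusted p = 0.638).

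Some upstream genes of the pathway also differed between the lines. Of 20 interferon genes with a probe, 19 were above background on no array. The exception was IFNA8, an interferon alpha gene, which was above background on all 12 arrays and 1.9-fold higher in U373 monoculture (log2 0.92, limma adjusted p = 0.000277). Its value averages 2 probes, and whether they read other transcripts was not tested. All 6 receptor chains were higher in U373 monoculture, as were 27.9% of all tested genes. In co-culture 5 of the 6 were called, all higher, where 25.6% of all tested genes were higher and 31.6% lower. IL10RB was not called in co-culture (log2 0.31, limma adjusted p = 0.103). IFNGR2, the signalling chain of the interferon gamma receptor, was 5.14-fold higher (log2 2.36, SE 0.17, adjusted p = 7.72e-09), IFNLR1, the chain specific to interferon lambda, at least 1.21-fold higher with U87MG at background, IFNGR1 1.91-fold and IL10RB, a chain shared with interleukin-10 signalling, 1.59-fold higher. Of 4 tested kinases and STATs, JAK2 (log2 0.73) and STAT3 (0.54) were higher, JAK1 (-1.25, SE 0.34) was lower and TYK2 did not pass. Of all tested genes 27.9% were higher and 31.2% lower. JAK1 had an SD of 0.9 over the U373 monocultures, against 0.09 in U87MG monoculture. In co-culture JAK2 (0.75) and STAT3 (0.7) were again higher and JAK1 lower (-0.82, limma adjusted p = 0.0497).

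Among 9 tested sensors and adaptors of interferon induction, 3 were higher and 0 lower in U373 monoculture, where 27.9% of all tested genes were higher and 31.2% lower. In co-culture 3 were higher and 2 lower, where 25.6% of all tested genes were higher and 31.6% lower. The 2 lower genes were TBK1 (log2 difference -0.69) and TLR3 (-0.41), named after their values were seen. TLR3 was above background on 0 of 3 U373 and 2 of 3 U87MG co-culture arrays. STING1, the adaptor of cytoplasmic DNA sensing, was 23.4-fold higher (log2 4.55, SE 0.14, limma adjusted p = 1.07e-12), with group means of 10.07 in U373 and 5.52 in U87MG. DHX58, the RNA helicase LGP2, was 1.83-fold and MAVS, the mitochondrial adaptor of RNA sensing, 1.56-fold higher. MAVS was above background on 2 of 3 arrays in each monoculture group, and these groups overlapped (limma adjusted p = 0.0301). Among 5 tested negative regulators, 0 were higher and 3 lower in U373 monoculture (59.2% of all tested genes were called), namely the phosphatases PTPN11 (log2 -0.99) and PTPN2 (-0.48) and the JAK inhibitor SOCS3 (-0.6, limma adjusted p = 0.0443). SOCS3 was above background on 1 of 3 U373 and 3 of 3 U87MG monoculture arrays. In co-culture, where 57.2% of all tested genes were called, PTPN11 alone passed (log2 -1.04). PTPN2 (-0.36, limma adjusted p = 0.0501) and SOCS3 (-0.26, adjusted p = 0.373) did not. STING1 and IFI16, both of the DNA sensing route, differed in opposite directions.

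**Figure D4:**
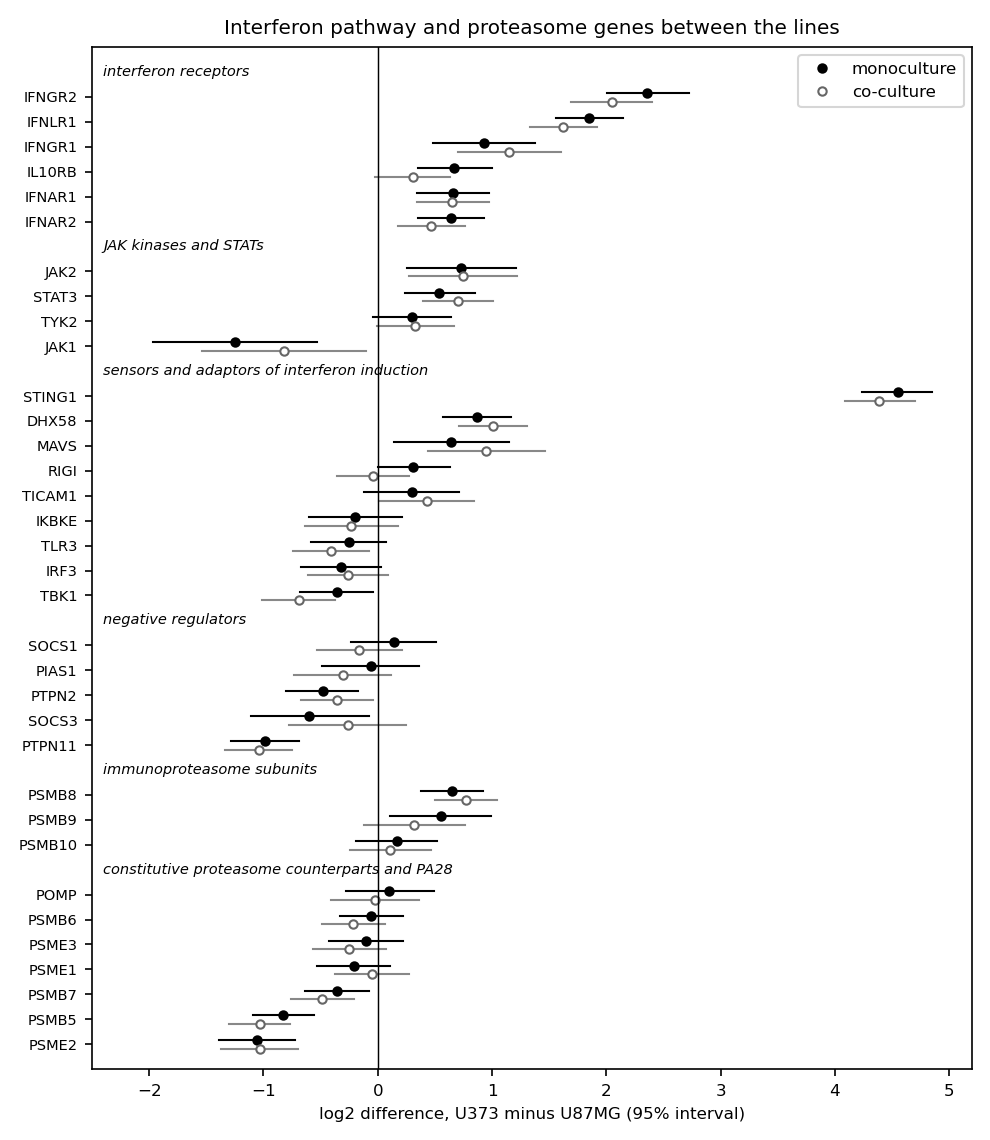
Log2 difference U373 minus U87MG (x axis, with 95% intervals) of tested interferon pathway and proteasome genes, in monoculture (filled) and co-culture (open). The 6 receptor chains lie to the right of 0 (IL10RB did not pass in co-culture), STING1 is at 4.55 in monoculture, and PSMB8 and PSMB5 lie on opposite sides of 0.

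The difference between the lines was measured again in the co-cultures, on 6 arrays whose values did not enter the monoculture means. Both comparisons came from the same fit and shared its estimate of the spread, so their p-values are not independent. In co-culture 20 members were higher and 13 lower in U373, by limma at an adjusted p under 0.05. These 80.5% of members compare with 57.2% of all tested genes, of which 25.6% were higher and 31.6% lower. Of the 35 members called in monoculture, 30 were called again with the same sign (85.7%), close to the 83.8% of all genes called in monoculture, and 40 of 41 members had the same sign in both. The exception was MX2, with 0.07 and -0.21. The log2 differences in the 2 cultures correlated at r = 0.975 across the 41 members and 0.973 across all tested genes, which are not independent replicates.

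In co-culture IFITM1 was 16.3-fold higher in U373 (9.25, 9.12 and 8.69 against 5.17, 4.78 and 5.02), and MX1 was 6.6-fold higher (8.98, 8.38 and 8.75 against 6.03, 6.04 and 5.88). OASL was at least 5.0-fold lower (3.55, 3.39 and 3.51 against 7.31, 7.21 and 7.35) and IFI44L 6.13-fold lower (4.55, 4.55 and 5.14 against 7.28, 7.45 and 7.36) as the mean of its probes, with a log2 difference of -3.3 for the probe above background on all 12 arrays. The log2 differences of the other leading members were 2.92 for IFITM2, 2.9 for IFITM3, 2.1 for IFIT2, 1.33 for GBP2 and -2.0 for SP110 (-2.69 with its brightest probe), and BST2 was at least 2.49-fold higher. The groups did not overlap in any of these 10 members.

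Of the immunoproteasome subunits, PSMB8 passed in co-culture (log2 0.77, SE 0.13, limma adjusted p = 9.57e-05), and PSMB9 (0.32, adjusted p = 0.199) and PSMB10 (0.11, adjusted p = 0.593) did not. PSMB9 averages a probe above background on all 12 arrays and a probe above background on none. With the former alone, it was higher in U373 co-culture (log2 0.7, adjusted p = 0.00248). DTX3L, IFIT1, ISG15, OAS3 and PSMB9 were called in monoculture only and IFIT3, OAS2 and SAMD9 in co-culture only, and for none of these 8 did the difference of the co-culture effects pass (adjusted p 0.799 to 0.952). With its brightest probe alone, OAS3 was also called in co-culture (log2 0.89, limma adjusted p = 0.000759).

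With co-culture the members of U373 differed little from monoculture. By limma 0 of 41 members passed (12 of all 10642 tested genes, 0.113%), with 4 members at an unadjusted p under 0.05 (9.51% of all tested genes), 1 higher and 3 lower. The median log2 difference, co-culture minus monoculture, was -0.05 over the members and 0.03 over all tested genes, and the median absolute difference 0.171 and 0.149. The arrays of the 2 groups did not overlap for 5 members, against 11.8% of all tested genes. Of these members 2 were higher and 3 lower, against 6.43% and 5.38% of all tested genes. For 38 of 41 members, and for 10052 of all 10642 tested genes, the 95% interval lay within a log2 difference of 1 in either direction. ISG15, IRF1 and IFI16 had wider bounds.

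ISG15 had the smallest p among the members in U373. It was 8.25, 8.52 and 8.09 in monoculture and 7.98, 7.06 and 7.33 in co-culture, a log2 difference of -0.83 (95% interval -1.27 to -0.39, limma adjusted p = 0.165), with no overlap between the groups. IFI16 was 8.25, 8.27 and 8.85 in monoculture and 8.66, 9.43 and 9.24 in co-culture (log2 0.65, 95% interval 0.2 to 1.11, adjusted p = 0.318), with replicates that overlapped. In both genes U373 co-culture replicate 1 lay nearest to the monocultures. Without it 155 of all tested genes passed, among them ISG15 (log2 -1.09, adjusted p = 0.0132) and IFI16 (0.88, adjusted p = 0.0469), and no other member did.

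TRIM22 was 6.8, 6.33 and 6.65 in U373 monoculture and 6.16, 6.03 and 6.25 in co-culture (log2 -0.45, 95% interval -0.77 to -0.13, limma adjusted p = 0.345), and MX1 had a log2 difference of -0.38 (adjusted p = 0.442). PSMB8, PSMB9 and PSMB10 had log2 differences of 0.0, -0.05 and -0.16. The 3 IFITM genes had differences of 0.31, -0.0 and 0.22. All 6 intervals included 0.

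**Figure D5:**
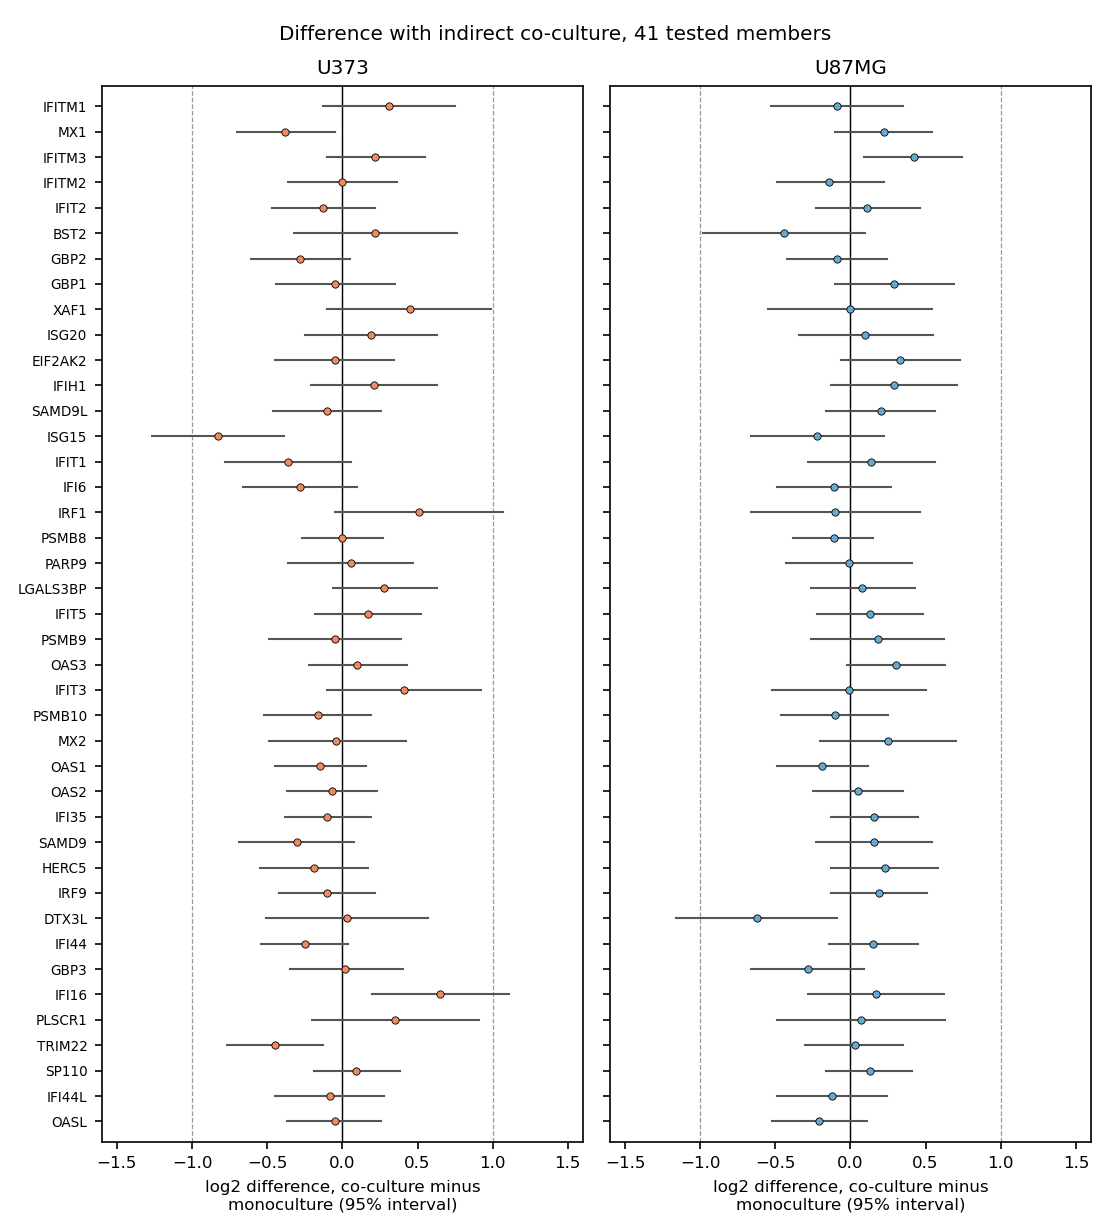
Log2 difference of co-culture minus monoculture (x axis, with 95% intervals, dashed lines at -1 and 1) of the 41 tested members in U373 (left) and U87MG (right). No member passed the test in either line; ISG15 in U373 lies farthest from 0, at -0.83.

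In U87MG 0 of 41 members passed with co-culture, as did 0 of all tested genes (0.0%), and 2 members had an unadjusted p under 0.05 (6.97% of all tested genes), 1 higher and 1 lower. In a limma fit of only the U87MG groups 3 of all tested genes passed and again 0 members. The median log2 difference was 0.08 over the members and 0.07 over all tested genes. IFITM3 was 9.76, 9.36 and 9.62 in monoculture and 9.98, 10.19 and 9.82 in co-culture, with no overlap (log2 0.42, 95% interval 0.09 to 0.74, adjusted p = 0.688). DTX3L was 5.35, 5.46 and 5.13 in monoculture and 4.54, 4.49 and 5.03 in co-culture (log2 -0.62, 95% interval -1.16 to -0.09, adjusted p = 0.704), and OAS3 4.57, 4.41 and 4.52 in monoculture and 4.84, 4.94 and 4.63 in co-culture (log2 0.3, adjusted p = 0.727). None of the 3 differences passed after adjustment over all tested genes, although the arrays of the 2 groups did not overlap for any of them. Without overlap, 5 members were higher and 1 lower, against 10.5% and 3.82% of all tested genes (14.3% in either direction). U87MG co-culture replicate 2 had the highest value of its group for 26 of 41 members (43.9% of all tested genes) and replicate 3 the lowest for 22 (50.9% of all tested genes).

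The difference of the co-culture effects, U373 minus U87MG, was past the threshold for 0 of 41 members (1 of all tested genes, 0.0094%), and 2 members had an unadjusted p under 0.05 (6.31% of all tested genes). MX1 had the smallest p (log2 -0.6, 95% interval -1.05 to -0.14, limma adjusted p = 0.683), from a difference of -0.38 in U373 and 0.22 in U87MG. TRIM22 followed with -0.47 (adjusted p = 0.773) and ISG15 with -0.61 (adjusted p = 0.799). The intervals of this difference are wide (median SE 0.242), and 29 of 41 lay within a log2 difference of 1, against 8845 of all 10642 tested genes. Of the lists of receptors, kinases and STATs, sensors, negative regulators, and constitutive proteasome and activator genes, 0 genes passed in either line with co-culture.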

How the data were processed

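RNA of 12 cultures was hybridized to Illumina HumanWG-6 v3 arrays, 1 array per culture. The authors deposited intensities after variance stabilizing normalization of the 12 arrays together, on a natural log scale. The base was checked on the table of intensities before normalization that the authors deposited, whose columns name no sample. Only 1 of them was used, and only for this check (slope of the mean deposited value against its natural log 0.982, over 2363 probes with signals over 1000), and the other 23 were not used. Division by ln 2 turned the values into log2 units. A fold is on this scale, where it understates the change of dim genes.

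The annotation gives 1 gene for 27578 of the 48803 probes, several for 13 and no gene for 21212. Probes of the first kind were used, under current RefSeq symbols (GRCh38.p14), and averaged per gene, as in the study. The background limit was set per array at 3 SD over the mode, with the SD taken from the lower side of the distribution. The model was fitted with limma 3.58.1 in R 4.3.3 (lmFit, contrasts.fit, eBayes) to 4 group means without covariates, with Benjamini-Hochberg adjustment over the 10642 tested genes. The study ranked genes by rank products instead. The number of arrays, 3 per group, limits the precision. On simulated data for the monoculture comparison (10642 genes), 8.0% of log2 differences of 0.5 and 84.0% of differences of 1 were recovered. In the simulation 10442 genes had no difference, whereas 59.2% of tested genes were called in the data. The adjusted threshold was thus stricter in the simulation, and these shares do not give the recovery in the measured comparison. Python 3.11.15 with numpy 2.4.6, pandas 2.3.3 and matplotlib 3.10.9 served for tables and plots.

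Arrays with the same replicate number deviated together from their group means in the monocultures (correlations 0.124, 0.113 and 0.205), in the U87MG groups (0.129, 0.174 and 0.147) and in the co-cultures (0.164, 0.155 and 0.131), every pair being over 0.1, but not between the U373 groups (0.192, -0.102 and 0.559). Neither the labels nor the methods say what a number shares, and no slide or scan label was used. Comparisons of co-culture with monoculture share arrays with the comparisons of the lines. The members and the lists were chosen with earlier results of these data known. Values on every array are given for the 10 members with the largest called monoculture difference (measured over background in every replicate of the higher line), the immunoproteasome subunits and, where nothing passed, the 3 members with the smallest p; further members are named by role. Up to 4 genes are named per list of other pathway genes, but among the sensors TBK1 and TLR3 were added after their values were seen. Alternatives were other background limits, no filter, other probe rules, further normalizations, other variance models, the replicate number as a block, and leaving out each array.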

Additional observations from a re-analysis of the deposited data

How the results depend on the processing

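Over 35 values of named members, 5 counts of called members and 23 alternatives, no direction was reversed. The count of called members was 31 to 36 in the monocultures and 30 to 33 in the co-cultures of the lines when each array was left out, and 0 in U87MG and for the difference of the co-culture effects. In U373 co-culture it was 0 to 2, with 2 only without U373 co-culture replicate 1. The other alternatives gave 32 to 37 and 30 to 34 members between the lines and 0 with co-culture. A limit of 2 SD added IRF7 and USP18, both lower in U373 (log2 -0.64 and -0.76). A limit of 5 SD left 35 members tested, and BST2, XAF1, DTX3L and OAS2 were among those no longer tested. In the co-cultures of the lines, IFI16 lost its call without U373 co-culture replicate 1 (log2 -0.38, adjusted p = 0.128) or U87MG co-culture replicate 2 (-0.48, adjusted p = 0.105), IFI6 without replicate 2 of either line (0.46 and 0.45), and OAS2 without U373 co-culture replicate 2 or U87MG co-culture replicate 1 or 2 (-0.39, -0.34 and -0.39). The cause was not tested.

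With the replicate number as a block, 35 members were called in the monocultures, where HERC5 (adjusted p = 0.0516) was lost and SAMD9 (log2 -0.41, adjusted p = 0.0395) gained, 33 in the co-cultures and 0 with co-culture in either line; as a random block, 36, 33 and 0. The block changed no other call of a member. All calls rest on 3 arrays per group and on signal over background: averaging a bright and a dim probe lowers the difference of IFIT1, OAS3, PSMB9, IFI44L and SP110.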
